A study of Oryza sativa with 12 samples.

Results

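Leaf gas films are thin layers of air that a water-repellent leaf holds under water, and cuticular wax is the coating that makes the surface repel water. The set described here holds 8 rice (Oryza sativa) loci of both processes, taken as every probe whose name begins with one of the 8 loci. They were LGF1, also called HSD1 (Os11g0499600, chromosome 11), WSL1 (Os06g0598800, chromosome 6), WSL4 (Os03g0220100, chromosome 3), WSL3 (Os04g0483500, chromosome 4), GL1-1 (Os09g0426800, chromosome 9), GL1-4 (Os02g0178800, chromosome 2), WDA1 (Os10g0471100, chromosome 10) and WR1 (Os02g0202000, chromosome 2). They had 15 of the array's 42418 probes and are 8 of its 29690 loci. Of these, 6 loci with 11 probes were measured, while no probe of WDA1 or WR1 was marked as well above background on an array.

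Wax is built from very long fatty acids that an elongation complex in the endoplasmic reticulum extends. The acids are then turned into alcohols, aldehydes and alkanes that are carried to the leaf surface. In rice, an air layer on submerged leaves lets the leaf exchange oxygen and carbon dioxide with the water, and loss of LGF1 function removes that layer. Several of the other genes are known from mutants whose leaves stay wet, or whose anthers lack their wax.

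The groups were submerged FR13A, control FR13A, submerged Goda Heenati and control Goda Heenati, with 3 biological replicates each. Seedlings were 14 d old, and those submerged spent 3 d in a tank with water 70 cm deep, while controls stood in a tank without water. At the start the shoot tip lay 52.7 ± 2.3 cm below the surface in FR13A and 45.9 ± 2.9 cm in Goda Heenati, so depth and genotype cannot be told apart in submerged leaves. FR13A is a landrace known as the source of the SUB1 tolerance locus, and all groups of a genotype share its background. The genotypes are compared here by name, not as tolerant against intolerant. Each sample was a pool of leaves from about 20 plants on 1 one-colour (Cy3) Agilent array. In such pools, fewer cells of a type and less RNA per cell cannot be told apart.

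Between 30643 and 34291 probes per array were well above background. Levels are log2 processed signal minus the array's 75th percentile, and 22738 genes entered the fit. Each gene is represented by the brightest of its kept probes. Fold changes are log2 values, each with a standard error (SE) from limma on 3 arrays a group, and a gene was called at a Benjamini-Hochberg adjusted p under 0.05 and at least 2-fold. The number of arrays limits the precision. Every group had 1 array on each of the 3 slides, so slide and replicate number coincide, and slide 1 was scanned on another day, with 1837 to 2406 saturated probes per array against 0 on the others. None of the 15 probes was saturated or marked as an outlier on any array. The leaf markers RBCS2, CAB2R and CAB1R were well above background on all 12 arrays, at levels of 2.40 to 7.20. Of the markers of other tissues, PT11, of roots, was well above background on 9 arrays and OSH1, of meristems, on 7. LSI1, of roots, passed on all 12, at levels of -3.82 to -0.61, and had log2 fold changes with submergence of -1.73 in FR13A and -1.58 in Goda Heenati, uncalled in both. PT11 had 1.43 in FR13A, uncalled, and rose in Goda Heenati, with 2.52 (limma adjusted p = 0.00677). It was well above background on 3 of 3 submerged and 1 of 3 control Goda Heenati arrays, and on 3 of 3 submerged and 2 of 3 control FR13A arrays, so these sizes rest on dim control signal. The part of these tissues in the results below was not tested. Alcohol dehydrogenase ADH2 was well above background on all 6 submerged arrays and on none of the controls.

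GL1-1 was the one gene of the set called in either response to submergence, and it fell in both genotypes. It belongs to the GL1 (glossy1) family, relatives of enzymes that make wax alkanes in Arabidopsis. In FR13A 1 of 6 measured genes was called, where 21.8% of all genes were called in either direction and 11.8% as lower. In Goda Heenati it was again 1 of 6, where 20.6% of all genes were called and 11.5% as lower. The other 5 genes were not called in either genotype in this fit, and 1 call in 6 is near the share of all genes. The median log2 fold change of the 6 genes was 0.27 in FR13A, against 0.05 over all genes tested, and 0.34 in Goda Heenati, against 0.09.

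The level of GL1-1 on replicates 1, 2 and 3 was -4.57, -3.97 and -3.86 in submerged FR13A leaves, against -1.96, -3.23 and -1.50 in control FR13A leaves. Every submerged array lay below every control array, which held for 20.2% of all genes in that direction. GL1-1 fell by 1.90 ± 0.42 on the log2 scale, or 3.74-fold (limma adjusted p = 0.00827). In Goda Heenati the level was -4.57, -4.46 and -4.17 in submerged leaves, against -3.01, -3.31 and -2.36 in control leaves. These groups did not overlap either, as for 20.1% of all genes in that direction, and GL1-1 fell by 1.51 ± 0.42, or 2.84-fold (limma adjusted p = 0.0255). Its other probe (AK120227) had log2 fold changes of -1.94 ± 0.44 in FR13A and -1.73 ± 0.44 in Goda Heenati, both called, and was well above background on 2 of 3 submerged Goda Heenati arrays. Within slides 1, 2 and 3 the submerged minus control difference was -2.61, -0.74 and -2.36 in FR13A and -1.56, -1.15 and -1.81 in Goda Heenati. The fall was thus present on every slide and smallest on slide 2 in both genotypes. The calls were lost with slide 1 left out (limma adjusted p = 0.151 in FR13A and 0.172 in Goda Heenati). That fit has fewer arrays and degrees of freedom, and the differences on slides 2 and 3 stand as given above. The calls were also lost with normexp background correction, where the FR13A value was -0.48 and the FR13A median of all genes 0.57. In Goda Heenati the call was also lost without submerged replicate 1 (limma adjusted p = 0.0794), submerged replicate 2 (0.0727), control replicate 1 (0.0562) or control replicate 3 (0.0924).

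**Figure D1:**
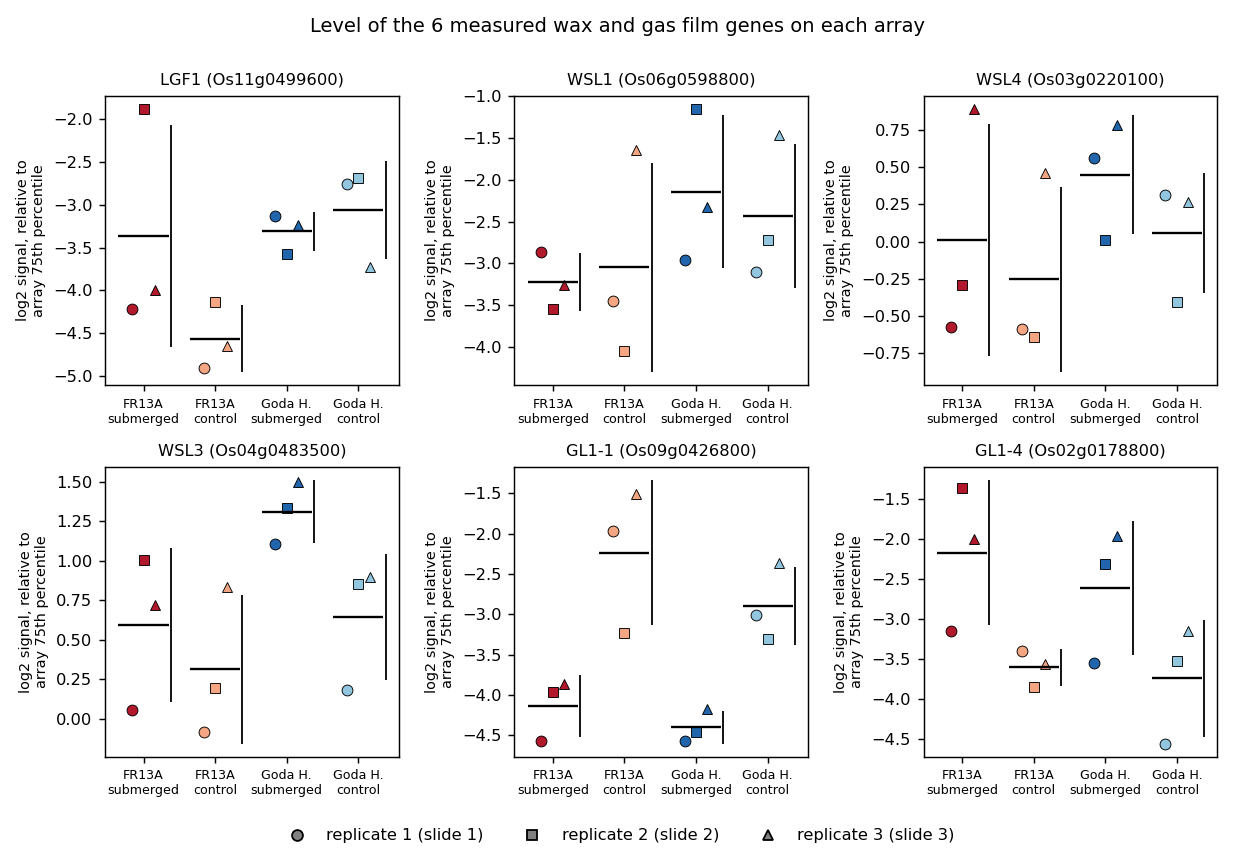
Level (log2 signal, 75th percentile of each array set to 0) of the 6 measured genes on each array, with the group mean as a horizontal bar and 1 SD as the vertical line beside it (n = 3 arrays). In the GL1-1 panel the submerged arrays, at -4.57 to -3.86, all lie below the controls, at -3.31 to -1.50, while in the LGF1 panel FR13A submerged replicate 2 stands at -1.88 above its own group.

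GL1-4, another gene of the GL1 family, had higher levels under submergence, but did not pass the test. Replicates 1, 2 and 3 stood at -3.15, -1.37 and -2.0 in submerged FR13A leaves, against -3.40, -3.85 and -3.56 in control FR13A leaves. The FR13A groups did not overlap, as for 20.2% of all genes in that direction. In Goda Heenati the levels were -3.55, -2.32 and -1.96 in submerged leaves, against -4.56, -3.52 and -3.15 in control leaves, and there the lowest submerged array lay below the highest controls. The log2 fold change of GL1-4 was 1.43 ± 0.54 in FR13A (limma adjusted p = 0.0736) and 1.13 ± 0.54 in Goda Heenati (limma adjusted p = 0.151). A fit with a term for replicate number (the replicate block), which removes what arrays of 1 slide share, called GL1-4 higher in FR13A (limma adjusted p = 0.0181) and in Goda Heenati (limma adjusted p = 0.0461), where it called 13.1% and 12.2% of all genes as higher. Over both directions that fit called 2 of the 6 measured genes in each genotype, GL1-1 and GL1-4, and 28.3% of all genes in FR13A and 26.8% in Goda Heenati. The second probe (AK066569) gave 1.51 and 1.14, and with the block limma adjusted p = 0.0173 and 0.0527, so the Goda Heenati call under the block held at 1 probe of 2. Within slides the difference was 0.26, 2.48 and 1.56 in FR13A and 1.0, 1.20 and 1.19 in Goda Heenati. Without FR13A submerged replicate 1, whose slide gave the smallest difference, GL1-4 reached 1.92 in FR13A (limma adjusted p = 0.033), and with saturated spots left out, 1.44 (limma adjusted p = 0.036). In the blocked fit the direction was lower for GL1-1 and higher for GL1-4 in both genotypes.

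**Figure D2:**
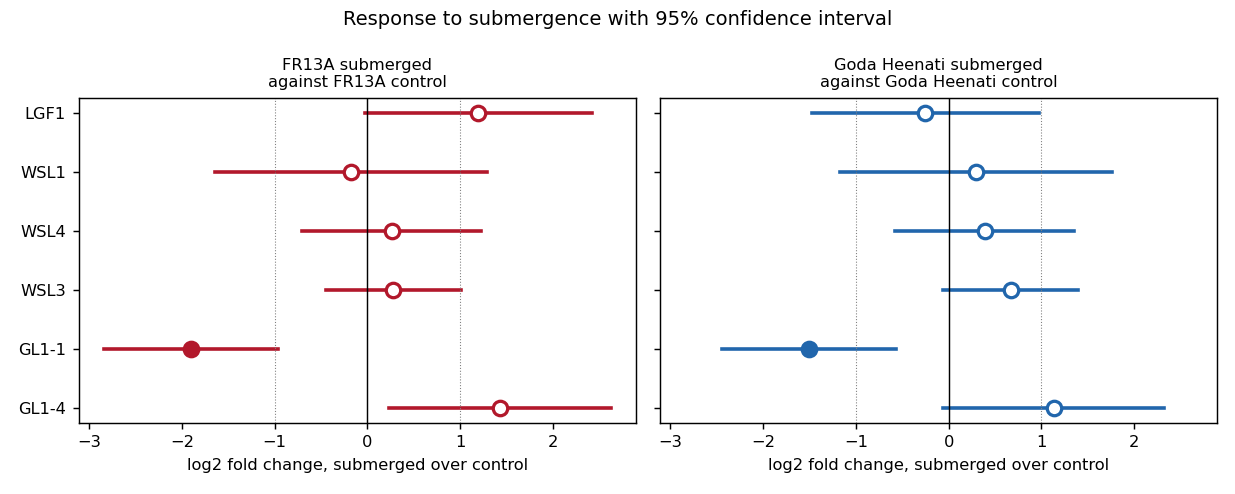
Log2 fold change, submerged over control, of the 6 measured genes in FR13A (left) and Goda Heenati (right), with the 95% confidence interval of the limma fit. Filled points passed the test. GL1-1 lies at -1.90 and -1.51 with intervals below 0, and GL1-4 at 1.43 and 1.13.

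LGF1 encodes a hydroxysteroid dehydrogenase-like protein, on which the primary alcohols of rice leaf wax and the gas film depend. Its level on replicates 1, 2 and 3 was -4.22, -1.88 and -4.0 in submerged FR13A leaves, against -4.90, -4.14 and -4.65 in control FR13A leaves. A single array, FR13A submerged replicate 2, stood far above the other 5, and one submerged array lay below the highest control. In Goda Heenati the level was -3.13, -3.57 and -3.23 in submerged leaves, against -2.76, -2.69 and -3.73 in control leaves, and the groups overlapped. The log2 fold change of LGF1 was 1.20 ± 0.55 in FR13A (95% interval -0.03 to 2.42, limma adjusted p = 0.135) and -0.25 ± 0.55 in Goda Heenati (-1.47 to 0.97, limma adjusted p = 0.777). Without FR13A submerged replicate 2 the FR13A value was 0.45 (limma adjusted p = 0.448), so the size of that value rests on 1 array. On that array normexp also gave an unusual spread, with an SD of 1.16 over all probes against 2.65 to 3.17 on the others. The levels given here do not use normexp. In the processed signal that array had 32018 probes well above background, and its r with the deposited values was 0.9994. The dimmer probe of LGF1 (AK069875) showed the same array apart, with -6.66, -4.45 and -6.64 in submerged FR13A leaves, against -7.71, -6.71 and -7.70 in control FR13A leaves. That probe was well above background on 3 submerged and 1 control FR13A arrays, and on 1 submerged and 3 control Goda Heenati arrays. It gave log2 fold changes of 1.46 ± 0.60 in FR13A and -0.78 ± 0.60 in Goda Heenati, uncalled in both.

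The genotypes' LGF1 levels lay apart in control leaves. All 3 FR13A controls, at -4.90 to -4.14, were below all 3 Goda Heenati controls, at -3.73 to -2.69, as for 9.49% of all genes in that direction. The log2 difference, FR13A minus Goda Heenati, was -1.50 ± 0.55 (95% interval -2.73 to -0.28), which did not pass over all genes (limma adjusted p = 0.166, or 0.0908 under the replicate block). The second probe gave -1.87 ± 0.60 (limma adjusted p = 0.113). Within slides 1, 2 and 3 the difference was -2.14, -1.44 and -0.93. With FR13A submerged replicate 2 left out, which enters only the shared estimate of spread, the SE fell to 0.32 and the difference was called (limma adjusted p = 0.0166). It stayed uncalled in 21 of 22 alternatives. These included normexp, at -1.24 (limma adjusted p = 0.945), and slide 1 left out, at -1.18 (limma adjusted p = 0.705). In submerged leaves the LGF1 levels of the genotypes overlapped, with a difference of -0.05 ± 0.55 (limma adjusted p = 0.984), at -1.09, 1.69 and -0.77 on the 3 slides.

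**Figure D3:**
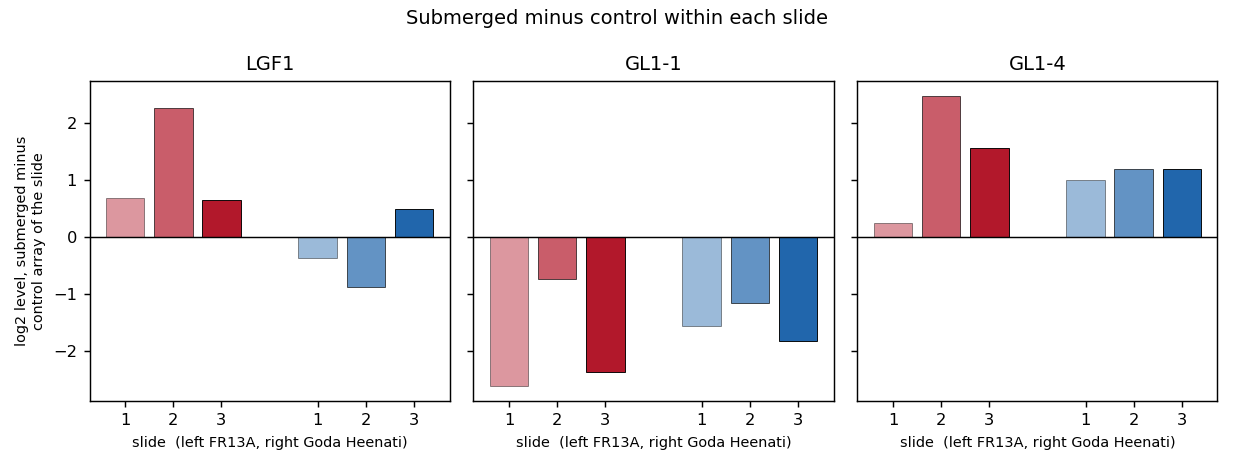
Submerged minus control log2 level within each slide for LGF1, GL1-1 and GL1-4, with the FR13A bars on the left of each panel and the Goda Heenati bars on the right. GL1-1 is below 0 in all 6 bars and GL1-4 above 0 in all 6, while LGF1 in FR13A is led by slide 2, at 2.26.

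The 3 genes of fatty acid elongation were not called in either response. WSL1 and WSL4 encode ketoacyl-CoA synthases, which add the carbon units, and WSL3 a ketoacyl-CoA reductase, which carries out the next step of each round. WSL3 had levels of 0.06, 1.0 and 0.72 in submerged FR13A leaves, against -0.09, 0.19 and 0.83 in control FR13A leaves, and the groups overlapped. In Goda Heenati WSL3 stood at 1.1, 1.33 and 1.50 in submerged leaves, against 0.18, 0.85 and 0.90 in control leaves, with no overlap, as for 22.1% of all genes in that direction. The log2 fold change of WSL3 was 0.28 ± 0.33 in FR13A (limma adjusted p = 0.566) and 0.67 ± 0.33 in Goda Heenati (limma adjusted p = 0.163). With the block the Goda Heenati value reached limma adjusted p = 0.0254, at 1.59-fold, under the 2-fold minimum. WSL3 was also the one measured gene whose submerged groups did not overlap between genotypes. It was lower in FR13A on all 3 arrays, as for 12.9% of all genes in that direction, with a difference of -0.72 ± 0.33 (limma adjusted p = 0.251, or 0.0388 with the block, again under 2-fold).

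WSL4 was measured by 3 probes. At the brightest, its levels were -0.57, -0.29 and 0.89 in submerged FR13A leaves, against -0.59, -0.64 and 0.46 in control FR13A leaves. In Goda Heenati they were 0.56, 0.01 and 0.78 in submerged leaves, against 0.31, -0.40 and 0.26 in control leaves. The groups overlapped in both genotypes, and the log2 fold change was 0.26 ± 0.44 in FR13A (95% interval -0.70 to 1.23) and 0.39 ± 0.44 in Goda Heenati (-0.57 to 1.36). The 3 probes ranged from -0.27 to 0.26 in FR13A and from -0.01 to 0.39 in Goda Heenati, so they did not share a direction. WSL1, with 1 probe, had the largest SE of the 6 measured genes. It stood at -2.87, -3.55 and -3.26 in submerged FR13A leaves, against -3.46, -4.05 and -1.64 in control FR13A leaves, and at -2.96, -1.15 and -2.32 in submerged Goda Heenati leaves, against -3.11, -2.73 and -1.47 in control Goda Heenati leaves. Its log2 fold change was -0.18 ± 0.66 in FR13A (95% interval -1.64 to 1.29) and 0.29 ± 0.66 in Goda Heenati (-1.18 to 1.76). The slides gave WSL1 both signs in each genotype, and these intervals do not show that it was unchanged.

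**Figure D4:**
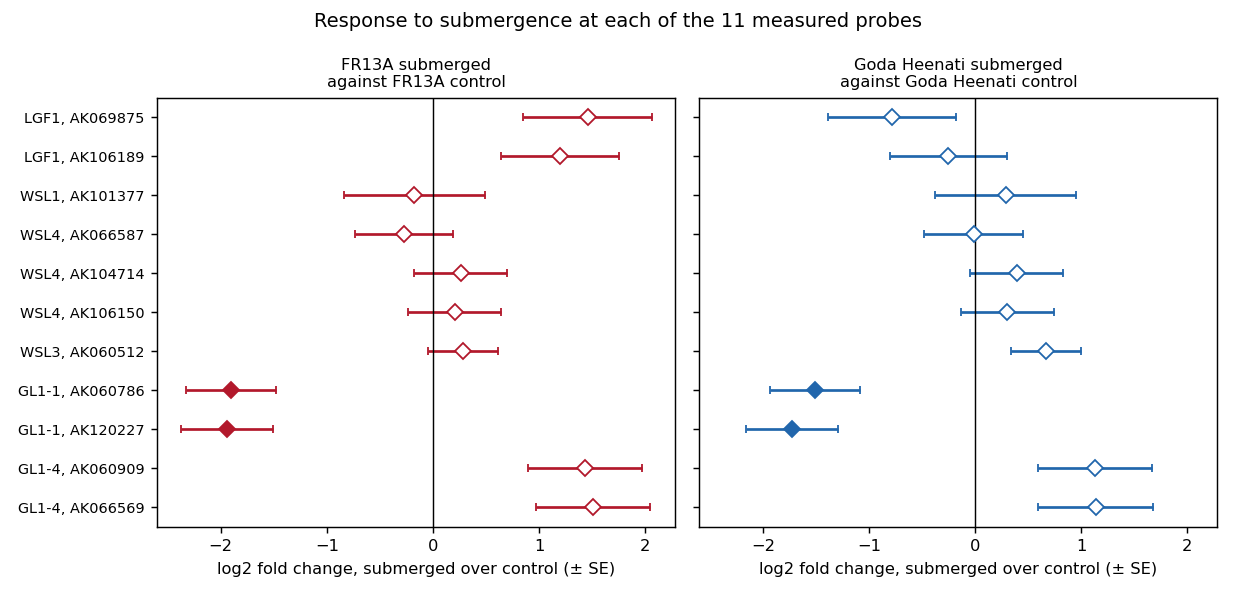
Log2 fold change, submerged over control, with SE, at each of the 11 measured probes in FR13A (left) and Goda Heenati (right). Probes are named by gene and GenBank accession from the array, and filled points passed the test over all 33071 kept probes. Both GL1-1 probes pass in both genotypes, the GL1-4 probes lie at 1.43 and 1.51 in FR13A, and the WSL4 probes run from -0.27 to 0.26 there.

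WDA1, a GL1 family gene known for anther wax, had no array of 12 well above background at any of its 3 probes. The same was true of WR1, an ERF transcription factor that promotes wax synthesis in rice leaves, at its 1 probe. These genes have no fold change here. The scanner software also marks signals that differ from the local background, a weaker criterion. By that mark the WDA1 probe AF143746 was above local background on 0 of 3 submerged and 3 of 3 control FR13A arrays, and on 1 of 3 submerged and 3 of 3 control Goda Heenati arrays. A second probe (AK100751) gave the same counts, while the third (AK121097) and the WR1 probe passed on no array. At AF143746 the dim signal was -9.14, -9.37 and -10.16 in submerged FR13A leaves, against -7.75, -7.15 and -8.12 in control FR13A leaves. In Goda Heenati it was -8.72, -7.62 and -9.98 in submerged leaves, against -7.35, -8.14 and -8.31 in control leaves. The FR13A groups did not overlap there, as for 20.2% of the genes tested in that direction, and the Goda Heenati groups did, all at signals too close to background for a fold change. With no filter on dim probes neither gene was called in any of the 5 comparisons. WDA1, there represented by its brightest probe, AK100751, was at limma adjusted p = 0.0634 in FR13A and 0.234 in Goda Heenati.

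**Figure D5:**
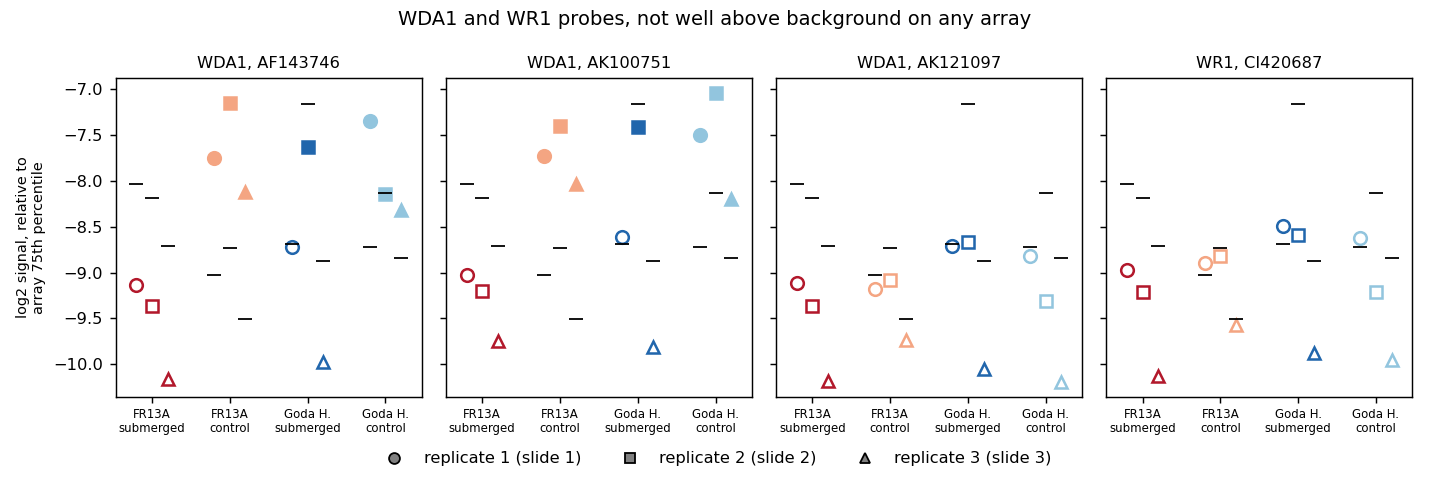
Level of the 3 WDA1 probes and the WR1 probe on each array (log2 signal, 75th percentile of each array set to 0). Filled symbols differed from the local background, open symbols did not, and the short black line is the lowest signal among probes well above background on the same array. At the WDA1 probes AF143746 and AK100751 the controls and Goda Heenati submerged replicate 2 are filled, and no symbol is filled at the other probes.

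Of 17 further loci of cuticle, wax and suberin formation that were listed, 4 had a name that the gene table holds on the chromosome of the locus, and only these were used. Of the 4, all measured, 2 fell in each genotype, 0 rose and 2 were not called, where 11.8% of all genes were called lower in FR13A and 11.5% in Goda Heenati. The loci were listed with earlier results of these data known, and only 4 of 17 were used. These counts are therefore no test of cuticle genes as a group. Of the 2 that fell, ROC4 kept its call under most alternatives in both genotypes, and ABCG5 lost its FR13A call under most of them. ROC4 (Os04g0569100), a homeodomain transcription factor of the epidermis that promotes leaf wax in rice, had levels of -5.00, -4.70 and -4.49 in submerged FR13A leaves, against -1.40, -1.73 and -1.89 in control FR13A leaves. In Goda Heenati ROC4 stood at -4.90, -4.61 and -4.51 in submerged leaves, against -1.50, -2.12 and -1.92 in control leaves. Every submerged array lay at least 2 log2 units below every control, and ROC4 fell by 3.05 ± 0.24 in FR13A (limma adjusted p = 2.57e-05) and had a log2 fold change of -2.82 ± 0.24 in Goda Heenati (limma adjusted p = 4.49e-05). Its other probes gave -2.92 and -3.15 in FR13A, and -2.83 and -2.81 in Goda Heenati. The ROC4 call was kept under 20 of 21 alternatives in each genotype and lost with normexp, at -1.32 in FR13A and -2.31 in Goda Heenati.

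ABCG5 (Os03g0281900), a transporter of root suberin formation, fell by 2.71 ± 0.91 in FR13A (limma adjusted p = 0.0487) and had a log2 fold change of -3.66 ± 0.91 in Goda Heenati, also called (limma adjusted p = 0.0145). It was well above background on 1 of 3 submerged and 3 of 3 control arrays in each genotype, so the size of the fall rests on dim signal. The FR13A call held in 5 of 21 alternatives, and the Goda Heenati call in 18 of 21. With normexp ABCG5 stood at 0.68 in FR13A, where the median of all genes was 0.57, against 0.05 as reported. ROC5 (Os02g0674800), a related homeodomain factor that acts in bulliform cells, had log2 fold changes of -0.08 ± 0.19 in FR13A and 0.03 ± 0.19 in Goda Heenati. CYP703A3 (Os08g0131100), a cytochrome P450 of anther cuticle formation, had 0.03 ± 0.76 in FR13A and -0.02 ± 0.76 in Goda Heenati.

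None of the 6 measured genes was called in the 3 comparisons of the genotypes as fitted. The difference between the responses, FR13A minus Goda Heenati, called 0 of 6 genes, where 0.0924% of all genes were called (limma). At the brightest probe of each gene the smallest unadjusted limma p was 0.0918, for LGF1. That gene had a difference of 1.45 ± 0.78 (95% interval -0.28 to 3.18), or 0.71 without FR13A submerged replicate 2. At its dimmer probe (AK069875) the difference was 2.24 ± 0.86, also uncalled. GL1-1 had a difference of -0.40 ± 0.60 (-1.72 to 0.93) and GL1-4 one of 0.30 ± 0.76 (-1.39 to 1.99). These intervals do not show that the responses were alike. In submerged leaves 0 of 6 genes were called, where 10.1% of all genes were, and in control leaves 0 of 6, where 8.44% were. At an unadjusted p under 0.05 the counts, at the brightest probe of each gene, were 0, 0 and 1, the 1 being LGF1 in control leaves. With the replicate block the count was 0 of 6 in each of the 3 comparisons, where 0.365%, 12.9% and 10.7% of all genes were called. Without FR13A submerged replicate 2, LGF1 was called in controls, the one gene called with a single array left out. In control leaves GL1-1 stood at a mean of -2.23 ± 0.89 in FR13A and -2.89 ± 0.48 in Goda Heenati (SD, n = 3 each), or 0.66 ± 0.42 apart, which missed the threshold (limma adjusted p = 0.625).

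Part of the spread within groups went with the slide. GL1-1 was highest on slide 3 in all 4 groups, WSL3 lowest on slide 1 in all 4, and WSL4 was highest on slide 3 in 3 of 4 groups and lowest on slide 2 in 3 of 4, though not the same 3. On slide 3 GL1-1 lay 0.23 to 0.73 above its group means, and on slide 1 WSL3 lay 0.21 to 0.54 below them. LGF1 was highest on slide 2 in 3 groups and lowest there in the other. Slide, replicate pool and, for slide 1, scan day cannot be told apart.

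The closeness of 2 genes' patterns was measured as the root mean square difference over the 12 arrays, after subtraction of each gene's own mean. WSL3 and WSL4 were the closest pair of the set, at 0.47, although 493 other genes lay closer to WSL4 and 2170 closer to WSL3. LGF1 was closest to WSL3 within the set, at 0.76, with 1363 other genes closer. Over all 22176 genes compared, the loci closest to LGF1 were Os07g0545100, at 0.43, and Os11g0184100, at 0.49, which are given by locus since the files do not name them. Like LGF1, both were high on FR13A submerged replicate 2 within their group. They were picked for closeness to LGF1 over these same arrays, so that likeness is no separate evidence. GL1-1 had no near neighbour in the set: WSL4 was closest, at 1.17, with 10503 other genes closer.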

How the data were processed

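The members and gene lists were chosen with earlier results of these data known. The authors quantified the arrays with Agilent Feature Extraction 10.5.1.1, per the file headers, which gave a linear intensity per spot, background-subtracted in the processed signal. A table of log2 values that the authors deposited covers 42475 probes, and its columns share 1 distribution. Their scale matches log2 processed signal (r of at least 0.9975 with each array), and the sources used here do not say how they were made. The table served as an alternative.

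Of 45151 spots, control spots and 59 probes named as controls were left out, and outlier spots were set aside. Probes well above background on every array of some group were kept (33071). The brightest kept probe stood for its locus. Tests were run in limma 3.58.1 (R 4.3.3), in 1 fit of 4 group means (8 residual degrees of freedom), adjusted by Benjamini-Hochberg. The fit was run on simulated data in which the spread was independent between arrays. Spread shared by arrays of the same replicate number was not simulated, so that run does not cover it.

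Deviations from group means correlated in all 18 pairs of arrays with the same number, at r from 0.26 to 0.79. For other numbers r was -0.55 to 0.03, low in part because the deviations within a group cancel out. Arrays of the same number thus shared part of their spread. Whether this came with the slide or the replicate pool cannot be told apart. Alternatives were other scalings, normexp (on the median signal, since the mean signal planned is no column of these files), no dim filter, saturated spots left out, the replicate block, single arrays left out, the mean of kept probes and no fold minimum. After the data were seen, slide 1 left out and each other probe were added. The 8 names are those given with the loci. The gene table (ASM3414082v1) pairs no locus with a name, and held 1 of the 8 names, wsl3, on chromosome 10, where WSL3 of this set is not. All 8 genes are described whatever their values. Others follow from lists fixed with them.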

Additional observations from a re-analysis of the deposited data

How the results depend on the processing

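Of 655 recomputed log2 values of the 6 measured genes, 613 kept their direction and their side of the threshold, 8 lost a call, 6 gained one and 28 turned sign. No called value turned sign. Of the 6 genes, the count called in FR13A under submergence was 1 as reported, 0 with normexp, 2 with saturated spots left out, 2 with the replicate block and 1 to 2 with single arrays left out. With slide 1 left out it was also 1, but the gene was GL1-4, not GL1-1. In Goda Heenati it was 1 as reported, 0 with normexp, 2 with the replicate block, 0 with slide 1 left out and 0 to 1 with single arrays left out. For the genotypes in control leaves it was 0 as reported and 0 to 1 with single arrays left out. The replicate block changed no other call. The cause of these changes was not tested. Leaving out arrays also lowers the degrees of freedom. Normexp gave FR13A submerged replicate 2 a far narrower spread than the other arrays, at an SD of 1.16. The array median in place of the 75th percentile moved the median fold change of all genes to 0.20 in FR13A, against 0.05 as reported, and to 0.22 in Goda Heenati, against 0.09. The share of higher genes among those called then was 56.3% in FR13A, against 45.9%. With normexp it was 72.9% in FR13A and 57% in Goda Heenati, against 44.1% there as reported. Normexp moved the median fold change of all genes to 0.57 in FR13A and 0.17 in Goda Heenati. Under these scalings the direction of no called member turned.

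All values that turned sign were uncalled. LGF1 between submerged genotypes became 0.37 with normexp, 0.16 with the mean of the probes, 0.46 with slide 1 left out and 0.37 at probe AK069875, and -0.80 to 0.37 with single arrays left out. WSL1 became 0.92 in FR13A and 0.60 for the difference between the responses with normexp, as GL1-1 became 0.69 for that difference. With normexp the median of all genes was 0.57 in FR13A, 0.38 for that difference and 0.39 between submerged genotypes. Probe AK066587 of WSL4 gave -0.27 in FR13A and -0.014 in Goda Heenati, and GL1-4 between control genotypes was -0.37 with slide 1 left out. With single arrays left out, WSL1 ranged from -0.68 to 0.53 in FR13A, -0.21 to 0.77 in Goda Heenati and -0.97 to 0.24 for the difference between the responses. WSL4 ranged from -0.18 to 0.62 in FR13A and -0.57 to 0.23 for that difference. GL1-4 ranged from -0.17 to 0.79 for it, from -0.033 to 0.93 between submerged genotypes and from -0.27 to 0.44 between control genotypes.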
